A study of Drosophila melanogaster with 17 samples.

Results

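The genes described here are the caspases of Drosophila melanogaster and their direct regulators: Dronc, Dark, Drice, Dcp-1, Dredd, Diap1, Diap2, Bruce, rpr and hid. They were chosen by gene symbol, current name or synonym, and every probe set annotated to 1 of them was used. Of the 10 genes, 6 had a probe set, 1 each, among 13966 probe sets tested (Dronc, Dark, Dcp-1, Dredd, Diap2 and Bruce). Drice, Diap1, rpr and hid are not analysed here.

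Affymetrix arrays recorded the transcripts of mushroom body neurons, the intrinsic cells of an insect brain centre for olfactory learning, at 3 times around the start of metamorphosis. All animals had the genotype yw;UAS-mCD8::GFP/+;;OK107-GAL4, in which a membrane-bound GFP marks the cells. OK107-GAL4 is inserted near the eyeless gene and is active in all types of mushroom body neuron and in some other brain cells, so the larval gamma neurons that prune their axons are not separated from their neighbours. The groups were larvae of the third instar, 18 h before puparium formation (-18 h, 7 arrays), newly formed white prepupae (0 h, 7 arrays) and pupae aged 5 h from that point (5 h, 3 arrays). Each array carried RNA from 1 pool of 40 laser captures of about 100 cell bodies each, and about 22 ng was amplified in 2 rounds. The labels call the arrays of a group biological replicates without saying how many animals a pool held, so the p-values measure the spread between these pools.

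Caspases are proteases that are made as inactive precursors and cut other proteins at aspartate residues. In flies the adaptor Dark gathers copies of the initiator caspase Dronc into an active complex, and Dronc then cuts and activates the effector caspases Drice and Dcp-1. The inhibitors of apoptosis Diap1 and Diap2 bind active caspases through BIR domains and mark them with ubiquitin, and the small proteins rpr, hid and grim release caspases by binding those same domains. Ecdysone, the steroid hormone that starts metamorphosis, is known to switch on several of these genes in larval tissues that are removed, and Dronc is needed for the pruning of dendrites in fly sensory neurons.

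Values are log2 RMA summaries of probe set intensity, so that a difference of 1 is a change of 2-fold. Array medians ran from 4.32 to 4.43 log2. The lower quartile of an array, taken here as a mark of dim signal, ran from 3.33 to 3.47. The mushroom body genes ey and rut averaged 8.97 and 10.4 log2 at -18 h, while dac, another marker, stood near the array median at 4.52. The mean over the 10 mushroom body markers measured of 13 listed lay between 6.41 and 6.90 in larvae, between 6.34 and 6.55 in prepupae and between 6.13 and 6.30 in the 5 h pupae. At 0 h against the larva, mamo rose while prt, DopR1 and chinmo fell, 4 of the 10. At 5 h against the larva, 1 was called higher and 2 lower. The changes were 1.08 log2 for toy, -4.31 for prt and -1.05 for DopR1. ey and rut changed by -0.23 and 0.06 and were not called, so the lower mean at 5 h is not shared by all markers. The 4 neuron markers measured of 6 listed had median array means of 5.83 in larvae, 5.13 in prepupae and 5.15 in 5 h pupae, and of these futsch and brp fell at 0 h, by 2.36 and 0.34 on the log2 scale. For the 7 markers of neuroblasts and dividing cells measured of 8, these medians were 5.20, 4.92 and 4.80. The part of these differences in the results below was not tested. Transcripts of other tissues were uneven between arrays. The mean of 7 salivary gland markers was 6.73, 6.79 and 10.7 log2 in larval arrays 1, 4 and 6, against at most 4.37 in the other larval arrays and 4.05 at 0 h. The mean of the 5 muscle markers measured of 7 listed reached 6.18 and 5.28 log2 in larval arrays 6 and 7, against at most 3.75 at 0 h. The 5 fat body markers measured of 7 listed had means between 5.87 and 8.14 log2 in larvae (lowest in arrays 4 and 1), between 5.22 and 6.87 in prepupae and between 6.42 and 7.90 in 5 h pupae. The 9 glia markers measured of 10 listed had means between 5.27 and 5.57 in larvae, 5.05 and 5.52 in prepupae, and 5.47 and 5.63 in 5 h pupae, and at 0 h repo rose while wrapper and Gs2 fell. The difference between the 3-prime and middle probe sets of the eIF4a control, a measure of 3-prime bias, averaged 3.03, 2.81 and 2.58 log2 at the 3 times. It ran from 2.91 to 3.12 in larvae and from 2.56 to 2.59 at 5 h, without overlap. For the actin control these ranges were 3.04 to 3.84 and 2.65 to 2.86, also apart. In comparisons of 5 h with the larva this bias cannot be told apart from time, and its part in the results was not tested. Hybridisation spike-in signal also varied, and arrays were divided into a higher and a lower set at the widest gap, 10.26 log2. Below it were arrays 4, 5 and 6 of the larvae, arrays 1 to 4 of the prepupae and all 3 of the 5 h pupae.

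**Figure D1:**
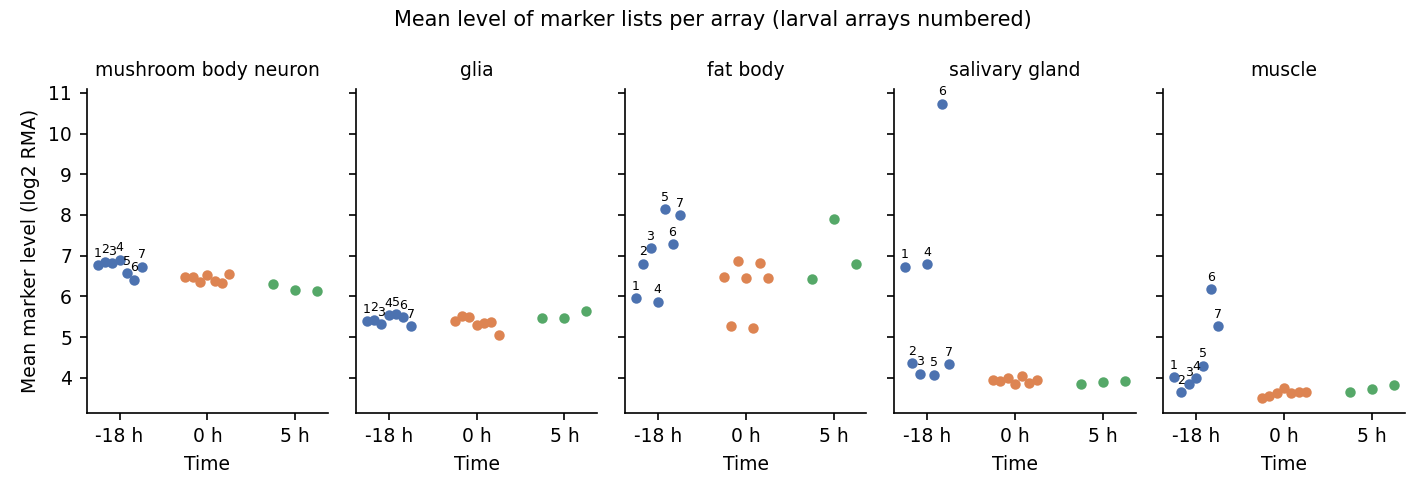
Mean level (log2 RMA, vertical axis) of 5 marker lists in each array at -18 h, 0 h and 5 h, with 1 point per array and the larval arrays numbered. Larval arrays 1, 4 and 6 stand apart in salivary gland markers and arrays 6 and 7 in muscle markers. The mushroom body mean is lower in all 5 h arrays than in all larval arrays. It includes prt, which changed by -4.31 log2 at 5 h against the larva, and toy, which rose by 1.08.

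The apoptosome genes were higher at puparium formation than in the larva, with a large difference for Dronc and a smaller one for Dark. Diap2 was lower, and Dcp-1, Dredd and Bruce did not pass the test. The test was limma's moderated test over all probe sets, called at an adjusted p (Benjamini and Hochberg) under 0.05, two-sided. In the comparison of 0 h with -18 h, 2 of the 6 members were called higher, where 13.6% of all probe sets were, and 1 lower, where 11.9% were. In 3 of 6 genes the groups did not overlap, where 11.3% of all probe sets had none. The median change of the 6 was 0.08 log2, against -0.02 over all probe sets. Pooled cell bodies do not tell fewer cells of a type from less RNA per cell, here and in every comparison that follows.

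**Figure D2:**
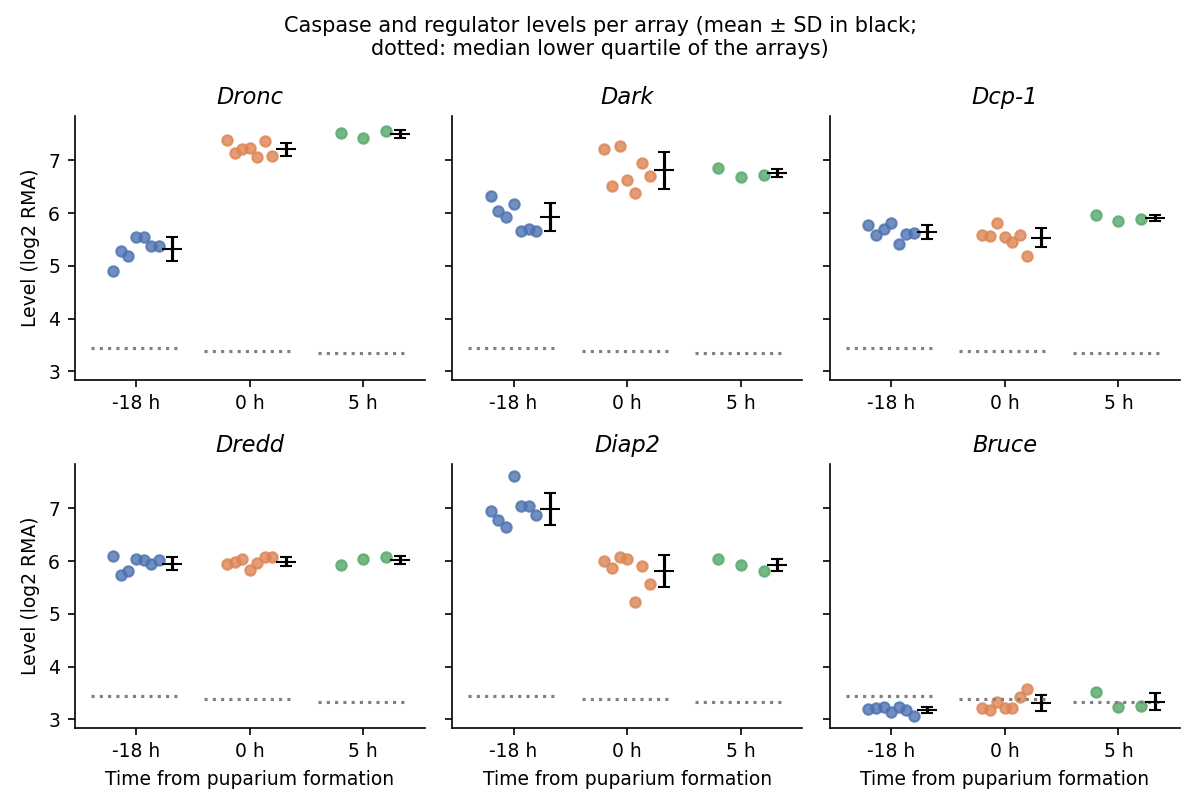
Level (log2 RMA, vertical axis) of the 6 measured genes in each array at -18 h, 0 h and 5 h, with the mean ± SD in black (n = 7, 7 and 3) and the median lower quartile of the arrays dotted. Dronc and Dark lie higher at 0 h and 5 h than at -18 h and Diap2 lower, without overlap, and Bruce lies at the dim mark.

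Dronc, the initiator caspase, read 7.07 at the lowest, 7.21 at the median and 7.38 log2 at the highest in the 7 arrays at 0 h, against 4.90, 5.37 and 5.54 at -18 h. The groups did not overlap, and the gap between the lowest 0 h array and the highest larval array was wider than either group's whole range. Prepupae averaged 7.21 ± 0.124 and larvae 5.31 ± 0.225 (SD, n = 7 each). The change of 1.90 log2 (SE 0.09, 95% interval 1.71 to 2.09), 3.73-fold, had limma's adjusted p = 1.26e-12 and stood at rank 39 of 13966 by p. Between-group differences made up 97.6% of the variance of Dronc over the 17 arrays, the largest share among the 6 genes. The rise measured 1.99 log2 within the higher spike-in set and 1.76 within the lower set. It was 1.88 without the larval arrays that stood apart in salivary gland or muscle markers (1, 4, 6 and 7). That subset was not free of other tissues, since larval array 5 was kept. Its muscle marker mean was 4.30 log2 and its fat body mean of 8.14 was the highest of the larvae.

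Dark, the fly relative of Apaf-1 that assembles Dronc, read 6.38, 6.70 and 7.26 log2 (lowest, median, highest) at 0 h, against 5.66, 5.92 and 6.32 at -18 h. The groups were next to each other without overlap, since 0 h array 5 lay just above larval array 1. The 0 h arrays spread more than those of Dronc, with arrays 1 and 3 at 7.22 and 7.26 and array 5 at the low end. Prepupal arrays averaged 6.81 ± 0.344 and larval arrays 5.93 ± 0.263 (SD, n = 7 each), a change of 0.88 log2 (SE 0.14, 95% interval 0.60 to 1.17), 1.84-fold, with limma's adjusted p = 3.16e-05. The rise was 0.69 log2 in the higher spike-in set, 1.06 in the lower set and 0.93 without larval arrays 1, 4, 6 and 7. Larval arrays 1 and 4, which had the lowest larval fat body signal, had the highest larval Dark levels, at 6.32 and 6.17 log2. At 0 h the lowest fat body means were those of arrays 5 and 2 (5.22 and 5.28). Their Dark levels were the lowest of that time, at 6.38 and 6.52. With larval arrays 1 and 4 as the only larvae, the Dark change was 0.56 and was not called (limma's adjusted p = 0.0568). Over 27 alternatives the adjusted p ran from 1.31e-05 to 0.0568. As these larval arrays were the highest in Dark, a smaller change was fixed in advance. The part of uneven tissue content in the size of the Dark difference was not tested.

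Diap2, a BIR-domain ubiquitin ligase that restrains Drice and also acts in the IMD immune pathway, went the other way. It read 5.22, 5.90 and 6.09 log2 (lowest, median, highest) at 0 h, against 6.66, 6.94 and 7.61 at -18 h. No 0 h array reached the lowest larval array. The mean was 5.81 ± 0.312 in prepupae and 6.99 ± 0.304 in larvae (SD, n = 7 each), and the change of -1.18 log2 (SE 0.14, 95% interval -1.47 to -0.89), 2.27-fold lower, had limma's adjusted p = 8.02e-07. Larval array 4 stood well above the other larvae at 7.61 log2, and without it the change was -1.08. The change was -1.25 within the higher spike-in set and -1.23 within the lower set, and over 27 alternatives it ran from -1.46, with larval arrays 1 and 4 as the only larvae, to -1.02, without larval arrays 1, 4, 6 and 7.

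Dcp-1, an effector caspase that acts beside Drice, ran from 5.19 to 5.81 log2 at 0 h and from 5.42 to 5.82 at -18 h, with medians of 5.57 and 5.61. The ranges overlapped almost wholly. Its change of -0.11 log2 did not pass (adjusted p = 0.403), and the 95% interval of -0.28 to 0.07 bounds the change. Dredd, the caspase-8 relative that cuts the transcription factor Relish in the IMD pathway, ran from 5.83 to 6.08 log2 at 0 h (median 5.98) and from 5.74 to 6.09 at -18 h (median 6.02). Its change of 0.04 (95% interval -0.11 to 0.18, adjusted p = 0.769) was the smallest among the 6 genes. Dredd differed so little between times that groups accounted for 5.62% of its variance.

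Bruce, a very large protein with a BIR domain and a ubiquitin-conjugating domain, gave dim signal throughout. It ran from 3.18 to 3.57 log2 at 0 h, with a median of 3.23, and from 3.07 to 3.24 at -18 h, with a median of 3.19. It lay below its array's lower quartile in 5 of 7 prepupal and 7 of 7 larval arrays. The change of 0.13 log2 (95% interval -0.02 to 0.28) did not pass (adjusted p = 0.215).

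**Figure D3:**
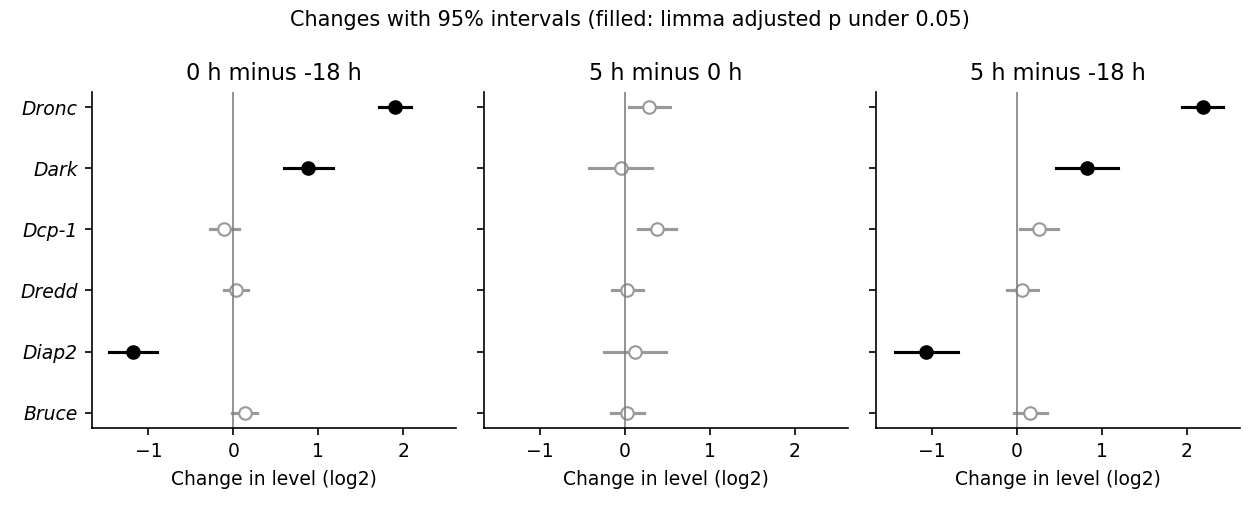
Change in level (log2, horizontal axis) of the 6 genes in each of the 3 comparisons, with 95% intervals from limma. Filled points passed an adjusted p of 0.05: Dronc and Dark higher and Diap2 lower against the larva, and no gene between 5 h and 0 h.

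Between puparium formation and 5 h later, when the first signs of axon pruning appear per the labels, none of the 6 genes passed limma's test. In this comparison 3.77% of all probe sets did, 2.36% higher and 1.42% lower. At an unadjusted p under 0.05 there were 2 of 6, Dronc and Dcp-1, where 13.9% of all probe sets were under it. Dronc read 7.52, 7.42 and 7.55 log2 in the 3 arrays at 5 h, against 7.07 to 7.38 at 0 h. All of the 5 h arrays lay above all of the 0 h arrays, by a narrow margin. The change was 0.29 log2 (SE 0.12, 95% interval 0.04 to 0.53, adjusted p = 0.238).

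Dcp-1 read 5.97, 5.86 and 5.89 log2 at 5 h, again above every 0 h array and also above every larval array. Its change of 0.37 log2 against 0 h (SE 0.11, 95% interval 0.15 to 0.59) had limma's adjusted p = 0.0605. Without 0 h array 3, the highest of its group at 5.81, the change was 0.42 and passed (adjusted p = 0.025, range over 26 alternatives 0.025 to 0.24). It passed in only 1 of the 26, and leaving out the highest 0 h array could only enlarge the change. Within the lower spike-in set, which held all 5 h arrays, the change was 0.28 and did not pass (adjusted p = 0.21). No overlap between 5 h and 0 h was seen in 8.49% of all probe sets, and among the members in Dronc and Dcp-1, 2 of 6.

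Dark read 6.85, 6.69 and 6.73 log2 at 5 h, inside the range of the 0 h arrays, and changed by -0.05 (95% interval -0.42 to 0.31, adjusted p = 0.94). Diap2 read 6.03, 5.93 and 5.82, also inside the 0 h range, with a change of 0.12 (95% interval -0.25 to 0.48, adjusted p = 0.863). Dredd read 5.93, 6.04 and 6.07 at 5 h, a change of 0.03 (95% interval -0.16 to 0.21, adjusted p = 0.94). Bruce read 3.52, 3.23 and 3.26, below the lower quartile in 2 of 3 arrays, and changed by 0.03 (95% interval -0.17 to 0.22, adjusted p = 0.946). All 4 genes thus overlapped between 5 h and 0 h.

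Against the larva, the 5 h pupae showed the same 3 genes past the threshold as the prepupae. Both comparisons use the same larval arrays, so the 5 h values stand beside those at 0 h and are not an independent repeat. Dronc averaged 7.50 ± 0.0704 log2 (SD, n = 3) at 5 h and 5.31 at -18 h, a change of 2.19 (SE 0.12), 4.55-fold, with limma's adjusted p = 1.66e-11 and rank 27 of 13966. Dark was higher by 0.83 log2 (SE 0.18, limma's adjusted p = 0.00152). With larval arrays 1 and 4, the highest larval arrays in Dark, as the only larvae, the change was 0.51 and not called (adjusted p = 0.151). The adjusted p over 26 alternatives ran from 0.00072 to 0.151. Diap2 was lower, with a change of -1.07 log2 (SE 0.18, adjusted p = 0.000133). In all 2 members were called higher, where 11.0% of all probe sets were, and 1 lower, where 9.06% were.

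Dcp-1 at 5 h exceeded the larva by 0.26 log2 (95% interval 0.04 to 0.49, adjusted p = 0.0935), short of the threshold. Its 3 arrays at 5 h lay above all 7 larval arrays, as did those of Dronc and Dark, and those of Diap2 lay below, so 4 of 6 genes had no overlap, where 20.4% of all probe sets had none. Dredd changed by 0.06 (adjusted p = 0.668) and Bruce by 0.16 (0.263).

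Across all 3 times, limma's F test called 4 of the 6 genes, where 27.1% of all probe sets were called. They were Dronc (adjusted p = 6.4e-13), Diap2 (1.55e-06), Dark (5.48e-05) and Dcp-1 (0.0373). The Dcp-1 call came from 5 h lying above the other times. It was lost in 8 of 25 alternatives, among them the leaving out of any 1 of the arrays at 5 h (adjusted p 0.0792 to 0.144) and the spike-in set as a block (0.0811), over a range of 0.0133 to 0.144. The levels of Dronc ran, in rising order, -18 h, 0 h, 5 h, with the last pair apart by less than the test resolves. For Dark the order was -18 h, 5 h, 0 h and for Diap2 0 h, 5 h, -18 h, and in both genes 0 h and 5 h did not differ beyond their spread.

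Within a time, arrays that were high in 1 gene were not always high in the next. After each group's mean was subtracted, the deviations of Dronc and Diap2 correlated with r = 0.55 over the 17 arrays, although their group means moved in opposite directions. Dark and Dcp-1 deviations correlated with r = 0.63, Dcp-1 and Diap2 with r = 0.53, and Dark and Diap2 with r = 0.49. Dronc and Dark deviations did not go together (r = -0.02). These values describe arrays that share a hybridisation and a tissue content with both genes, and carry no test.

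**Figure D4:**
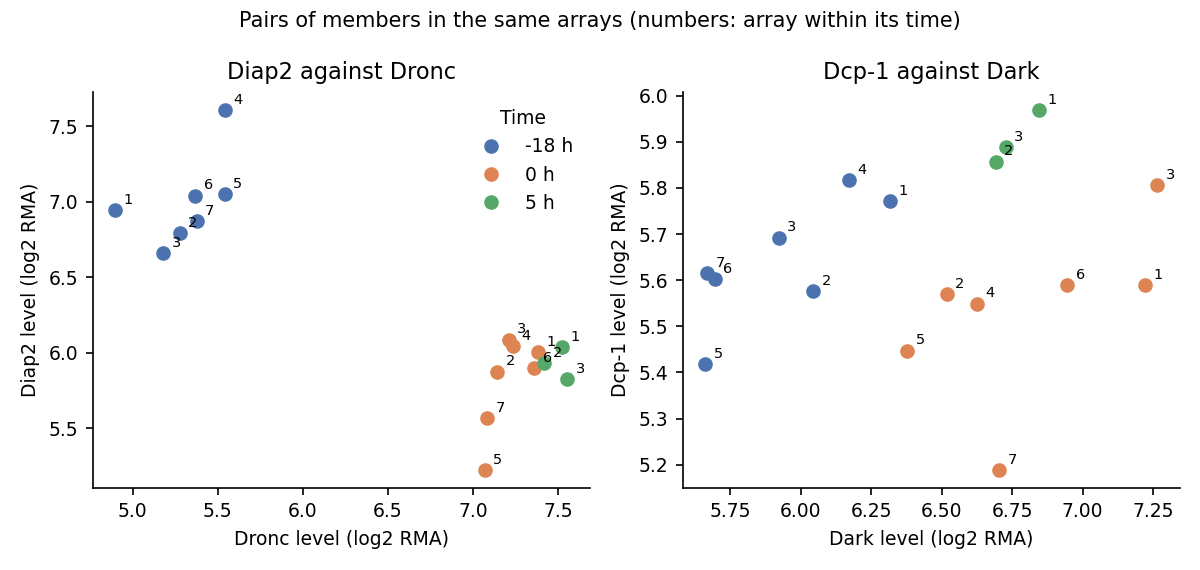
Diap2 level against Dronc level (left) and Dcp-1 level against Dark level (right), both in log2 RMA, with 1 point per array coloured by time and numbered within its time. The larval arrays form 1 cloud and the 0 h and 5 h arrays another in the left panel, and 0 h array 5 is the lowest of its time in Dronc, Diap2 and Dark.

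By Pearson correlation over all 17 arrays, the named genes most like Dronc were Septin1 (r = 0.99), spict (0.98) and Ids (0.98), and the most opposite were Tsp42Eo (-0.98), Pglym78 (-0.98) and Vha36-1 (-0.98). Since the arrays fall into groups, these values mostly record the step after the larva: Septin1 averaged 7.02, 8.80 and 9.01 log2 at -18 h, 0 h and 5 h. In all 309 probe sets reached r of 0.9 with Dronc. For Dark the nearest were Ero1L (0.96), Pyroxd1 (0.96) and Kr-h2 (0.94). For Diap2 they were Mpcp2 (0.96), Ac76E (0.94) and hoe1 (0.94). Deviations within groups correlated with r of 0.85, 0.84 and 0.80 for the Dark genes and 0.73, 0.65 and 0.85 for the Diap2 genes. For Septin1, spict and Ids with Dronc they were 0.68, 0.65 and 0.55. All these genes were picked by their correlation over the same arrays, so the values within groups are no independent support.

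Other genes of the death pathway were taken from 8 lists, and 52 of their 61 genes were measured. At 0 h against -18 h, 12 of these rose and 4 fell, 30.8% in all, where 25.5% of all probe sets were called. The median change over the 52 genes was -0.02 log2, as over all probe sets. Against 0 h, 0 rose and 5 fell at 5 h (9.62%, where 3.77% of all were called). Against the larva 9 rose and 5 fell at 5 h (26.9%, where 20.0% were called). Among the latter calls, those of bsk and morgue were kept in only 6 and 11 of 26 alternatives.

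The death triggers of the rpr and hid family and the further caspases were not called in any comparison. Of all probe sets, 25.5% were called at 0 h against -18 h, 3.77% at 5 h against 0 h and 20.0% at 5 h against -18 h. In lists this short, few or no calls lie near those shares. The caspases Strica and Damm lay below their array's lower quartile in nearly all arrays. Of the antagonists in the family of rpr and hid, grim read 3.29 to 3.58 log2 at 0 h and 3.35 to 3.71 at -18 h, close to the dim mark. skl, a further member of that family, read 4.13 to 4.55 at 0 h and 3.89 to 4.69 at -18 h. With HtrA2, a mitochondrial protease, the 3 measured genes of this list had changes between -0.13 and 0.01 log2 over the 3 comparisons, and 0 of 3 passed. HtrA2 was below the lower quartile in all arrays. In the list of Bcl-2 relatives and mitochondrial factors 0 of 6 passed at 0 h and 1 of 6 at 5 h against the larva, namely Buffy, a Bcl-2 relative, with 4.35 log2 at 5 h and 3.86 at -18 h (adjusted p = 0.012). That call was lost without 5 h array 3 (0.0754, range over 26 alternatives 0.00233 to 0.0754).

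The list of ubiquitin-system regulators of IAPs and caspases also held a kinase and a BIR protein, whose changes at 0 h were its largest. Of its 8 measured genes, 3 rose and 1 fell at 0 h, where 13.6% of all probe sets were called higher and 11.9% lower. IKKepsilon, a kinase that phosphorylates Diap1 and promotes its turnover, read between 6.60 and 7.48 log2 at 0 h, against 5.24 to 5.91 at -18 h. It rose by 1.49 log2 (limma's adjusted p = 2.96e-09) and stood at 6.94 to 7.22 at 5 h. Det, a survivin-like BIR protein known from cell division, read 3.64, 4.09 and 4.37 log2 at 0 h, against 4.61, 5.27 and 5.74 at -18 h, a 2.13-fold fall (adjusted p = 8.47e-06). Of the 7 markers of neuroblasts and dividing cells measured, 2 were called lower, PCNA and mira, by 0.63 and 0.68 on the log2 scale. The others were not called, with changes between -0.24 and 0.04. The part of dividing cells in the Det value was not tested. In this list morgue and Tango10 also rose at 0 h, by 0.38 and 0.42 log2 (adjusted p = 0.0144 and 0.0141). The other Tango10 probe set changed by 0.20 and did not pass. With larval arrays 1 and 4 as the only larvae, both calls were lost (adjusted p = 0.314 for morgue and 0.763 for Tango10). Each spike-in set taken alone also lost the morgue call (0.15 in the higher, 0.109 in the lower), and the lower one lost that of Tango10 (0.297).

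In the IMD pathway, where Dredd and Diap2 act together, 4 of 12 measured partners rose at 0 h and 0 fell, where 13.6% of all probe sets were called higher and 11.9% lower. casp, which encodes Caspar, an inhibitor of the Dredd-dependent cutting of Relish, read 9.32, 9.73 and 9.97 log2 (lowest, median, highest) at 0 h, against 7.26, 7.42 and 7.92 at -18 h. It rose 4.48-fold (limma's adjusted p = 4.23e-12), more on the log2 scale than any member, and stood 3.54-fold above the larva at 5 h. The adaptor gene imd rose by 0.86 log2 (adjusted p = 9.12e-06), reaching a low 3.93 at 0 h, with larval values below the lower quartile in 7 of 7 arrays, while its other probe set changed by 0.07. key, the regulatory subunit of the fly IKK complex, rose by 0.77 (0.00278) and PGRP-LE, a peptidoglycan sensor, by 0.46 (0.000366), a call lost in the lower spike-in set (0.0711). All 4 were also called at 5 h against the larva, key neither without 5 h array 2 (adjusted p = 0.0704) nor with the spike-in sets blocked (0.066), and 0 of 12 passed between 5 h and 0 h.

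**Figure D5:**
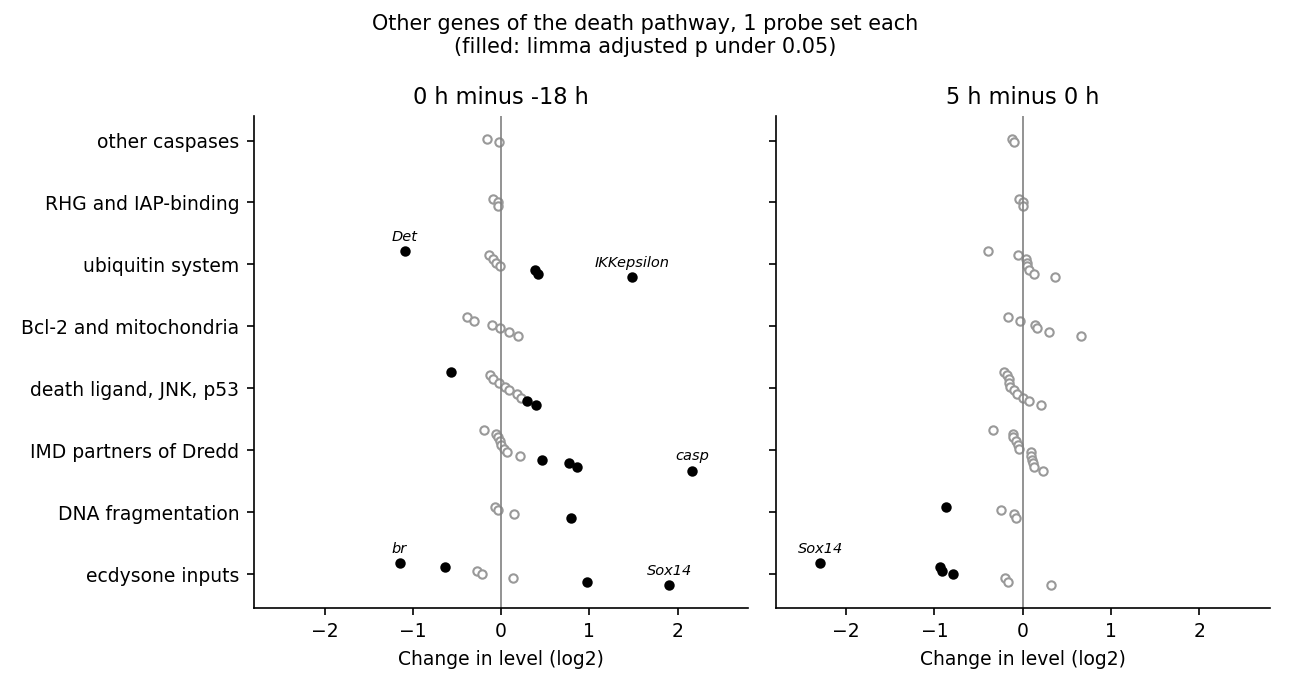
Change in level (log2, horizontal axis) of the 52 other death pathway genes, by list, at 0 h against -18 h (left) and 5 h against 0 h (right), with filled points past limma's adjusted p of 0.05. At 0 h casp, Sox14 and IKKepsilon lie farthest to the right, and at 5 h the called genes, 4 of them ecdysone inputs, all lie to the left.

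Among inputs from the death ligand, JNK and p53 pathways, 2 of 10 rose and 1 fell at 0 h, 30% in all and near the 25.5% called over all probe sets. Traf6, a signalling adaptor, rose by 0.39 log2 (adjusted p = 9.67e-05) and egr, the fly TNF ligand, by 0.30 (0.0116) at 4.13 log2. Both calls were lost with larval arrays 1 and 4 as the only larvae (0.0824 for Traf6 and 0.0755 for egr) and within the higher spike-in set (0.0752 and 0.057 in that order), and that of egr also within the lower set, where its change was 0.15 (0.328). puc, a phosphatase that is both a target and a brake of JNK, changed by -0.56 (0.00142) and was also lower at 5 h against the larva (-0.70, 0.0029). Of the 4 measured DNA fragmentation factors, 1 was called at 0 h, 25% where 25.5% of all probe sets were. This gene, Drep1, which relates to the inhibitor of the caspase-activated nuclease, peaked at 0 h. It read 4.05 to 5.00 log2 at 0 h, against 3.63 to 4.24 at -18 h, a rise of 0.79 (adjusted p = 2.03e-05) with some overlap. At 5 h it read 3.68 to 3.85, below every 0 h array, a change of -0.87 (adjusted p = 0.00122). Drep3 was not called by its brightest probe set. Its other probe set, at 3.48 log2 at 0 h, was higher than in the larva by 0.25 at 0 h and 0.33 at 5 h (limma's adjusted p = 0.0107 and 0.0155).

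The ecdysone inputs of the death genes held 4 of the 5 calls between 5 h and 0 h. At 0 h against the larva, 2 of 7 measured genes rose, Sox14 (3.75-fold) and Hr4 (1.97-fold), and 2 fell, br by 1.15 and EcR, the ecdysone receptor, by 0.64 on the log2 scale, where 13.6% of all probe sets were called higher and 11.9% lower. With arrays of the lower spike-in set alone, the EcR change was -0.44 and not called (adjusted p = 0.362). At 5 h against 0 h, 4 of 7 fell and 0 rose, where 1.42% of all probe sets were called lower. The changes were -2.29 log2 for Sox14, -0.93 for EcR, -0.92 for br and -0.79 for Hr4, from limma's fit (adjusted p 3.33e-07 to 0.0203). Over that interval Dronc changed by 0.29 and Dark by -0.05. Sox14, an ecdysone-induced transcription factor, had 6.39 log2 at 5 h and 8.68 at 0 h, where Dronc had 7.50 and 7.21. The EcR, br and Hr4 values come from the brightest of 2, 3 and 2 probe sets by the mean over all arrays, and the 4 others did not pass. Against 0 h, these changed at 5 h by between -0.21 and -0.004. At 0 h against the larva they changed by 0.003 for Hr4, -0.15 for EcR, and 0.09 and -0.10 for br. The other EcR probe set was not dim. It averaged 5.19, 5.04 and 5.00 log2 at -18 h, 0 h and 5 h, against 5.78, 5.14 and 4.21 for the one used. For br, 1 of the others averaged 5.66, 5.75 and 5.54. The falls of EcR and br thus rest on 1 probe set each. The EcR call at 5 h against 0 h was lost in 4 of 26 alternatives (adjusted p up to 0.133).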

How the data were processed

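The authors deposited log2 RMA summaries per probe set. The submitters' processing notes name RMA and Affymetrix Expression Console. The sources used here give no version, nor whether all arrays were normalised together, and the values entered the fit unchanged. The table held 14010 probe sets, of which 44 controls were dropped, leaving 13966. Symbols of the array annotation were updated through the RefSeq Release 6 gene table. There were 12443 probe sets with 1 symbol, 327 with several and 1196 with none, and those without exactly 1 symbol were fitted but never named.

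A linear model with 3 groups over all 17 arrays was fitted with limma 3.58.1 (lmFit, eBayes) in R 4.3.3, with p-values adjusted over all probe sets of a comparison. The code was tested on simulated data of the same size. The members and lists were chosen with earlier results of these data known. Other pathway genes were represented by their brightest probe set, the one with the highest mean over all arrays. At most 4 called genes per list and comparison, by smallest p, were open to naming. Genes of the triggers and caspases were named beside them. For likeness, the 3 genes of highest correlation with Dronc, Dark and Diap2 were named, and for Dronc the 3 lowest. The number of arrays limits the precision, above all the 3 at 5 h. The 27 alternatives were quantile normalisation, dropping dim probe sets, a robust trend fit, 2-group fits, replicate and spike-in blocks, each spike-in set alone, 2 subsets of larval arrays and leaving out each array. The subset with larval arrays 1 and 4 alone, and the alternatives for the pathway genes, were added after seeing the data.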

Additional observations from a re-analysis of the deposited data

Results flagged for a closer look

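Diap2 in larval array 4, at 7.61 log2, stood apart from the other larval arrays, the nearest of which was at 7.05. The gap came to 0.584 of the group's whole range, past the critical value of Dixon's test. Of 12 groups of 7 arrays examined over the 6 genes this was 1, and chance alone sets apart about 1 in 20. The same array was among those with salivary gland transcripts (marker mean 6.79 log2) and had the lowest fat body marker mean of the larvae (5.87), and their part in its Diap2 level was not tested.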

How the results depend on the processing

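Over 17 fits that each left out 1 array, and 10 others, Dronc and Diap2 kept their calls against the larva in every fit run. Dark lost both calls with larval arrays 1 and 4 as the only larvae (0.56 and 0.51 log2, adjusted p = 0.0568 and 0.151) and in no other fit, and its F test then had adjusted p = 0.124. Those arrays had the highest larval Dark levels, so a smaller change was fixed in advance. The number of members called was 2 to 3 at 0 h and at 5 h against the larva, and 0 to 1 between 5 h and 0 h. The 1 was Dcp-1, without 0 h array 3. The members called at any time numbered 3 to 4. Genes that were not called changed sign around 0 in some fits. Against the larva at 0 h, Dredd was at -0.014 with quantile normalisation, -0.048 in the lower spike-in set and -0.074 with larval arrays 1 and 4 alone, and -0.0003 to 0.062 with 1 array left out. Dcp-1 was at 0.016 in the lower set. Dredd at 5 h against the larva was at -0.047 with larval arrays 1 and 4 alone. Between 5 h and 0 h, Diap2 was at -0.068 when the spike-in sets were blocked and -0.073 in the lower set, and with 1 array left out Dark ran from -0.12 to 0.023, Dredd from -0.0026 to 0.068 and Bruce from -0.067 to 0.079. The pathway genes called at 5 h against the larva numbered 9 to 14 with 1 array left out, against 14, with 9 without 5 h array 2. All probe sets called numbered 2244 to 3953 at 0 h against the larva (3568 as reported) and 304 to 621 between 5 h and 0 h (527 as reported). At 5 h against the larva, bsk, morgue and Traf6 were called higher, by 0.29, 0.42 and 0.30 log2 (limma's adjusted p = 0.0473, 0.0444 and 0.018). usp was called lower, with a change of -0.38 (limma's adjusted p = 0.042). These calls of bsk, usp, morgue and Traf6 were kept in 6, 17, 11 and 18 of 26 alternatives.

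Replicate numbers did not pair the arrays. Deviations of same-numbered arrays at 0 h and -18 h correlated with r from -0.281 to 0.367 (7 pairs), and 1 of 7 correlated best with its own number. With the replicate block the members called were 3, 0 and 3 in the 3 comparisons, as without it, and 3 at any time, since Dcp-1 was then not called (adjusted p = 0.126). Dronc at 0 h against -18 h stayed at 1.90 log2, which was fixed in advance, since each replicate number occurs once at both times. Bruce had no value when dim probe sets were dropped, and the higher spike-in set held no array at 5 h. Signal near the lower quartile limits what can be said of Bruce, and 3 arrays limit every comparison with 5 h.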
